A study of Mus musculus with 8 samples.

Results

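The S100 fused-type proteins filaggrin (Flg), filaggrin 2 (Flg2), hornerin (Hrnr), repetin (Rptn), trichohyalin (Tchh), trichohyalin-like 1 (Tchhl1) and cornulin (Crnn) were examined in whole mouse skin. The 7 genes were chosen by symbol, and array probes were assigned to them through RefSeq accessions. Of the 7 genes, 6 had a probe, 1 each, and all 6 entered the comparison, which covered 17736 genes in all. Flg was not analysed here, because no probe carried an accession that the gene table pairs with it. RNA of 4 skins labelled DTG and 4 skins labelled Control was hybridised to 1 one-colour array per skin. Overexpression of the RNA-binding protein Musashi1 in mouse skin is the subject given in the title, and DTG was set against Control to find transcripts that change. The labels do not spell out DTG. The transgene's promoter, the mouse strain, the age and the body site were not given in the sources used here. Each sample's title carries a different number, but no label states that the skins came from separate animals.

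Each S100 fused-type protein begins with a calcium-binding domain like that of the small S100 proteins and continues into long tandem repeats. Their genes lie side by side in the epidermal differentiation complex, the gene cluster that also holds loricrin, involucrin and the small proline-rich and late cornified envelope families. Profilaggrin is stored in the keratohyalin granules of the granular layer and cut into filaggrin, which bundles keratin filaments and is then broken down to free amino acids that hold water in the stratum corneum. Filaggrin 2 and hornerin are related proteins of the cornified layers. Trichohyalin is the granule protein of the inner root sheath and the medulla of the hair follicle, where deimination and transglutaminase cross-links harden it. Cornulin and repetin are further members made in stratified epithelia.

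In the RefSeq table the order of the 7 genes on chromosome 3 was Crnn, Flg2, Flg, Hrnr, Rptn, Tchh, Tchhl1. Windows of 300 bases, from 250 bases before to 50 bases after each annotated gene start (RefSeq, GRCm38.p6), were matched for all 7. The letters TGANTCA, a loose form of the site bound by AP-1 factors with any middle base, occurred in the windows of 5 genes. Their first bases stood at positions -103 to -69, where position 1 is the annotated start. The pattern TGANTCA reads the same on both strands, so a match on either strand is a match on both. On the plus strand the middle base was T in Rptn and A in the other genes, never the C or G of the usual AP-1 site. TGATTCA is TGAATCA read on the opposite strand, so the match in Rptn differs from the others in orientation only. Of 32851 windows of that length in the table, 7.81% held these letters. The stretches are shown because they are what 5 of the 7 windows share, among them that of Tchhl1, which rose, and those of Flg2, Rptn and Crnn, which did not pass the test. Capitals mark the match, with 12 bases on either side.
Crnn, chr3:93144681-93144711, plus strand: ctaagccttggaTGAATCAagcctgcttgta
Flg2, chr3:93197192-93197222, plus strand: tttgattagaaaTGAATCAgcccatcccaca
Flg, chr3:93273431-93273461, plus strand: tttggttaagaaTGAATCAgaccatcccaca
Rptn, chr3:93393591-93393621, plus strand: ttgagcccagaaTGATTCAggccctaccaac
Tchhl1, chr3:93468655-93468685, plus strand: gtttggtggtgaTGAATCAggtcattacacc

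The windows of Tchh and Hrnr held no such letters. The annotated start of Tchh may lie at a coding exon, so its window may not be its promoter, and nothing is read from the letters it lacks or from its base composition. Further motifs were searched on both strands: TATAAA, the core of a TATA box, AGATAA, as bound by GATA factors, and CACCC, as bound by Krüppel-like factors. TATAAA stood in 4 of the 7 member windows (Crnn, Flg, Hrnr and Rptn) and in 13.6% of all windows. AGATAA stood in 2 (Flg2 and Tchh) and in 11.2% of all windows, and CACCC in 6, all but Tchh, and in 57.5% of all windows. No matches of different motifs overlapped in the 7 windows, and a match is a description of letters, not of binding. The full windows of Tchh and Tchhl1, the genes that rose, follow with all motif matches in capitals. The GC content was 28.7% in the Tchh window and 46.7% in the Tchhl1 window.
Tchh, chr3:93442080-93442379, plus strand: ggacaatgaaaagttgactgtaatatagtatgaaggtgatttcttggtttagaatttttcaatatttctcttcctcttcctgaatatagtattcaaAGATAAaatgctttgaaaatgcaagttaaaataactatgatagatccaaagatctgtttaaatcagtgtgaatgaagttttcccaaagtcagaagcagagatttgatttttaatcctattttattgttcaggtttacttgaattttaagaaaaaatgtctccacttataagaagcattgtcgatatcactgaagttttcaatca
Tchhl1, chr3:93468504-93468803, plus strand: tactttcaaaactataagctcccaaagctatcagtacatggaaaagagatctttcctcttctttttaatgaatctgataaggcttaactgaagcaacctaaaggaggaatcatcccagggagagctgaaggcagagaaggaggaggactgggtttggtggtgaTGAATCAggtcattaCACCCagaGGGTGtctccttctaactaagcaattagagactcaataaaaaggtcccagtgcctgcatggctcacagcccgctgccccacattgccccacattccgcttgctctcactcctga

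The arrays differed between the groups as a whole. All 8 lay on 1 slide with 1 scan time, DTG arrays in row 2 and Control arrays in row 1, and the slide's rows cannot be told apart from the groups. Spots well above background made up 68.8% to 71.6% on DTG arrays and 79.5% to 85.1% on Control arrays, and negative-control spots had a mean log2 signal of 4.27 to 4.69 on DTG arrays and 2.40 to 3.29 on Control arrays. On the Msi1 probe A_55_P2062688 the level was 3.85 to 4.16 on DTG 2, 3 and 4, with DTG 1 left out for an outlier flag, and -5.92 to -1.48 on the Control arrays. On the Msi1 probe A_51_P296866 it was -3.36 to -3.03 on DTG arrays and -3.36 to -2.80 on Control arrays. All skins are labelled male, yet Xist was high and the Y-linked gene Eif2s3y low on 5 arrays (DTG 1, 3 and 4, Control 2 and 4), so values within the arrays of high and of low Xist are given below. Over all 17736 genes the median log2 fold change was -0.15. All 6 member probes were well above background on all 8 arrays, none was saturated and none carried an outlier flag, so the values that follow use every array. The presence of keratinocytes in the tissue showed in the suprabasal markers Krt1, Krt10, Krt2, Lor, Ivl and Cdsn, of which 6 of 6 were well above background on all 8 arrays.

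Tchh and Tchhl1, the neighbouring genes at one end of the family's stretch, were higher in DTG skin, and none of the 6 members tested was called lower. Calls are by limma at a Benjamini-Hochberg adjusted p under 0.05 over all genes tested. Of all 17736 genes, 32.5% were called in either direction, 11.2% higher and 21.3% lower. The 2 calls among 6 members (33.3%) are thus near the share over all genes. The groups did not overlap for 1 member, Tchh, and for 34.6% of all genes, 11.4% higher and 23.2% lower in DTG. The median log2 fold change of the 6 members was 0.58, against -0.15 for all genes. In whole skin, fewer cells of a type and less RNA per cell cannot be told apart.

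Tchh, the trichohyalin gene, rose. Its level, as log2 signal above the 75th percentile of the array, was 1.39, 1.02, 1.15 and 0.95 on DTG 1 to 4, and -0.07, -0.50, 0.21 and -0.33 on Control 1 to 4. All DTG arrays exceeded all Control arrays, and the lowest DTG value was 0.95 against a highest Control value of 0.21. In linear units the processed signal was 10238, 8606, 9172 and 7287 on DTG 1 to 4, and 3138, 3005, 4012 and 3015 on Control 1 to 4. The mean level was 1.13 ± 0.19 in DTG and -0.17 ± 0.31 in Control (SD, n = 4 each). The log2 fold change was 1.30 (SE 0.17, 95% interval 0.91 to 1.68, limma adjusted p = 0.0012), a 2.46-fold higher signal, and the exact two-sided permutation p was 0.0286, the smallest that 4 against 4 arrays can give. Among all genes tested, 2.24% had a log2 fold change at least as high. It was 1.58 (SE 0.16, limma adjusted p = 0.010) within the arrays of high Xist. It was 0.95 (SE 0.21, limma adjusted p = 0.092) within those of low Xist, where the spread of the single DTG array is taken from the Control arrays.

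Tchhl1, whose gene lies beside Tchh, also rose. Its level was -0.90, -1.15, -1.12 and -1.93 on DTG 1 to 4, and -1.89, -2.66, -2.31 and -2.84 on Control 1 to 4. DTG 4 was the lowest of its group and lay just below Control 1, the highest of its group; the other DTG arrays were above every Control array. The mean level was -1.27 ± 0.45 in DTG and -2.42 ± 0.42 in Control (SD, n = 4 each). The log2 fold change was 1.15 (SE 0.27, 95% interval 0.54 to 1.76, limma adjusted p = 0.013), a 2.22-fold higher signal, and the exact two-sided permutation p was 0.0571. Within the arrays of high Xist the log2 fold change was 1.43 (SE 0.32, limma adjusted p = 0.045), and within those of low Xist it was 0.95 (SE 0.25, limma adjusted p = 0.11). Tchhl1 and Tchh were each higher in DTG in 4 of 4 slide columns. That count adds nothing for Tchh, whose groups did not overlap, so that any pairing would give it. For Tchhl1 only DTG 4 against Control 1 could read otherwise, and these lay in different columns.

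Flg2, the filaggrin 2 gene, had lower values in DTG skin that did not pass the test. Its level was 1.75, 1.70, 1.45 and 2.23 on DTG 1 to 4, and 2.26, 2.08, 2.26 and 2.68 on Control 1 to 4. DTG 1, 2 and 3 lay below every Control array, while DTG 4 lay above Control 2. The mean level was 1.78 ± 0.33 in DTG and 2.32 ± 0.25 in Control (SD, n = 4 each). The log2 fold change was -0.54 (SE 0.19, 95% interval -0.96 to -0.11 before adjustment, limma adjusted p = 0.057, exact two-sided permutation p = 0.0571). Without DTG 4 the log2 fold change was -0.68 (limma adjusted p = 0.021), and with the arrays scaled on their spike-in spots it was -0.07 (limma adjusted p = 0.85). Each slide column held 1 DTG and 1 Control array, of the same number, and DTG minus Control was -0.50, -0.38, -0.82 and -0.45 in columns 1 to 4. Flg2 was thus lower in DTG in 4 of 4 columns. With the column as a block the log2 fold change of -0.54 had an SE of 0.11 and passed (limma adjusted p = 0.027). That block was added after the values were seen, and no label pairs the skins of a column, so little weight rests on this pass.

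Hrnr, the hornerin gene, varied widely within both groups, with means of 0.05 ± 0.81 in DTG and 0.38 ± 0.64 in Control (SD, n = 4 each). Its level was 0.07, 0.75, -1.09 and 0.49 on DTG 1 to 4, and 0.87, -0.53, 0.38 and 0.80 on Control 1 to 4. DTG 3 and Control 2 were each far below the other arrays of their group, and the groups overlapped. The log2 fold change was -0.33 (SE 0.44, 95% interval -1.33 to 0.67, limma adjusted p = 0.59), and without DTG 3 it was 0.05.

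Rptn, the repetin gene, had a level of 2.08, 2.26, 1.34 and 1.84 on DTG 1 to 4, and 1.85, 1.19, 2.18 and 1.37 on Control 1 to 4. The groups overlapped over most of their range. The log2 fold change was 0.23 (SE 0.26, 95% interval -0.37 to 0.83, limma adjusted p = 0.52), so a change of up to 0.83 upwards or 0.37 downwards lies within the interval. It was 0.08 without Control 2 and 0.41 without DTG 3, and 0.70 (limma adjusted p = 0.055) on the spike-in scale. DTG 3 and Control 2 were the lowest arrays of their groups for Rptn, for Hrnr and for Flg2 alike.

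Crnn, the cornulin gene, had a level of -3.26, -1.74, -3.29 and -3.90 on DTG 1 to 4, and -3.84, -4.02, -3.23 and -4.78 on Control 1 to 4. DTG 2 stood well above all other arrays, and the remaining DTG arrays lay within the Control range. The log2 fold change was 0.92 (SE 0.48, 95% interval -0.16 to 2.003, limma adjusted p = 0.17), and it was 0.48 without DTG 2. With the Xist class as a covariate it was 1.23 (SE 0.28, limma adjusted p = 0.014), and DTG 2 was the only DTG array of low Xist. Markers of mucosal-type epithelium did not move with it as a group: Krt4 read -0.02 and Krt13 0.20 on the log2 scale, neither of which passed (another Krt13 probe read -0.31), and Krt78 fell by 1.55 (SE 0.20, limma adjusted p = 0.0012). Over the 3 of 5 listed markers that were tested, the summed processed signal was 57649 to 80593 on DTG arrays and 62263 to 72047 on Control arrays, and their part in the Crnn values was not tested. Summed signals, here and below, are linear, are not scaled between arrays and include flagged spots, unlike the log2 fold changes.

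**Figure D1:**
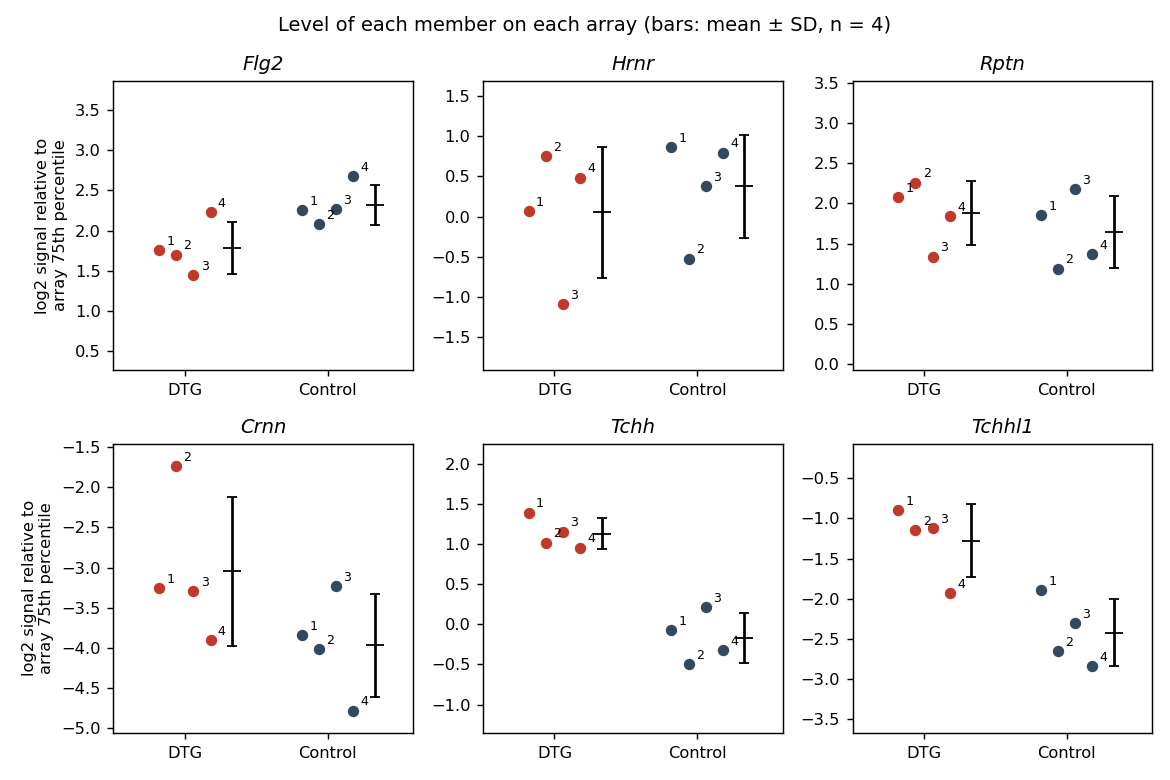
Level, as log2 signal above the array's 75th percentile (vertical axes, each spanning the same range) for the 6 members with a probe; points are arrays, numbered by replicate, and bars give mean ± SD of 4 arrays. The DTG and Control points separate for Tchh, touch at DTG 4 and Control 1 for Tchhl1, and overlap for Flg2, Hrnr, Rptn and Crnn.

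Scalings that subtract a single value from all probes of an array leave differences between members within that array unchanged. Quantile scaling and normexp correction can change them. The log2 signal of Tchh minus that of Flg2 was -0.36, -0.68, -0.30 and -1.27 on DTG 1 to 4, and -2.33, -2.57, -2.05 and -3.004 on Control 1 to 4. These differences did not overlap between the groups, and their mean was -0.65 ± 0.45 in DTG and -2.49 ± 0.40 in Control (SD, n = 4 each), a change of 1.84. The pair was chosen after the values were seen, so no test is given. For Tchh minus Tchhl1 the mean was 2.40 ± 0.33 in DTG and 2.25 ± 0.34 in Control, a change of 0.15, which is less than the spread between arrays. The probes differ in brightness for reasons other than transcript number, so only the change of such a difference is read.

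**Figure D2:**
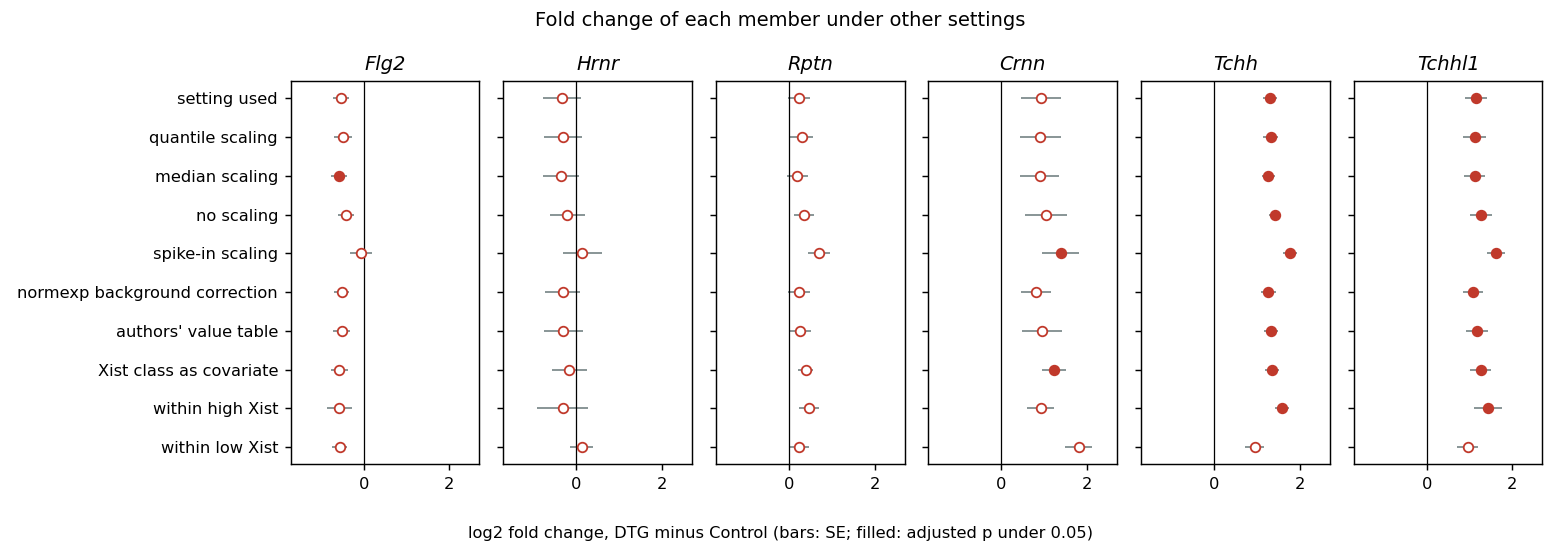
Log2 fold change, DTG minus Control (horizontal axes), of each member with the settings used and with 9 others (rows); bars are standard errors, and filled points have a limma adjusted p under 0.05. Tchh and Tchhl1 stay above 0 in every row and are open in the row for low Xist alone, while Hrnr crosses 0.

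The size of the changes moved with the scaling. Arrays scaled on the spike-in spots gave a median log2 fold change over all genes of 0.32, and calls that were 7.51% lower against 65.6% with the scale used; unscaled arrays gave -0.02 and 41.6%. On the spike-in scale Tchh was 1.77 and Tchhl1 1.62 higher on the log2 scale, while Crnn, at 1.39, passed the test (limma adjusted p = 0.034). Hrnr turned to 0.14 there without passing. Relative to the median of all genes with the scale used, the changes were 1.45 for Tchh, 1.30 for Tchhl1, 1.07 for Crnn, 0.38 for Rptn, -0.18 for Hrnr and -0.39 for Flg2.

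Along the chromosome, the gene tested next to Tchh on one side was Rptn, and the gene tested next to Tchhl1 on the other was S100a11, a small S100 gene, which read 0.13 (SE 0.12, limma adjusted p = 0.42). The rise was thus called for an adjacent pair, and neither flanking gene passed. Of 60 tested genes in the cluster, taken in order between S100a1 and S100a10, 18 were called higher (30%, beside 11.2% of all genes) and 4 lower (6.67%, beside 21.3% of all genes), and 36.7% were called in all, beside 32.5% of all genes. Without the members, 16 of 54 were called higher. Smcp, a sperm mitochondrial sheath gene, had the highest log2 fold change among the 60, at 3.04 (SE 0.27), and was chosen here after its value was seen.

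**Figure D3:**
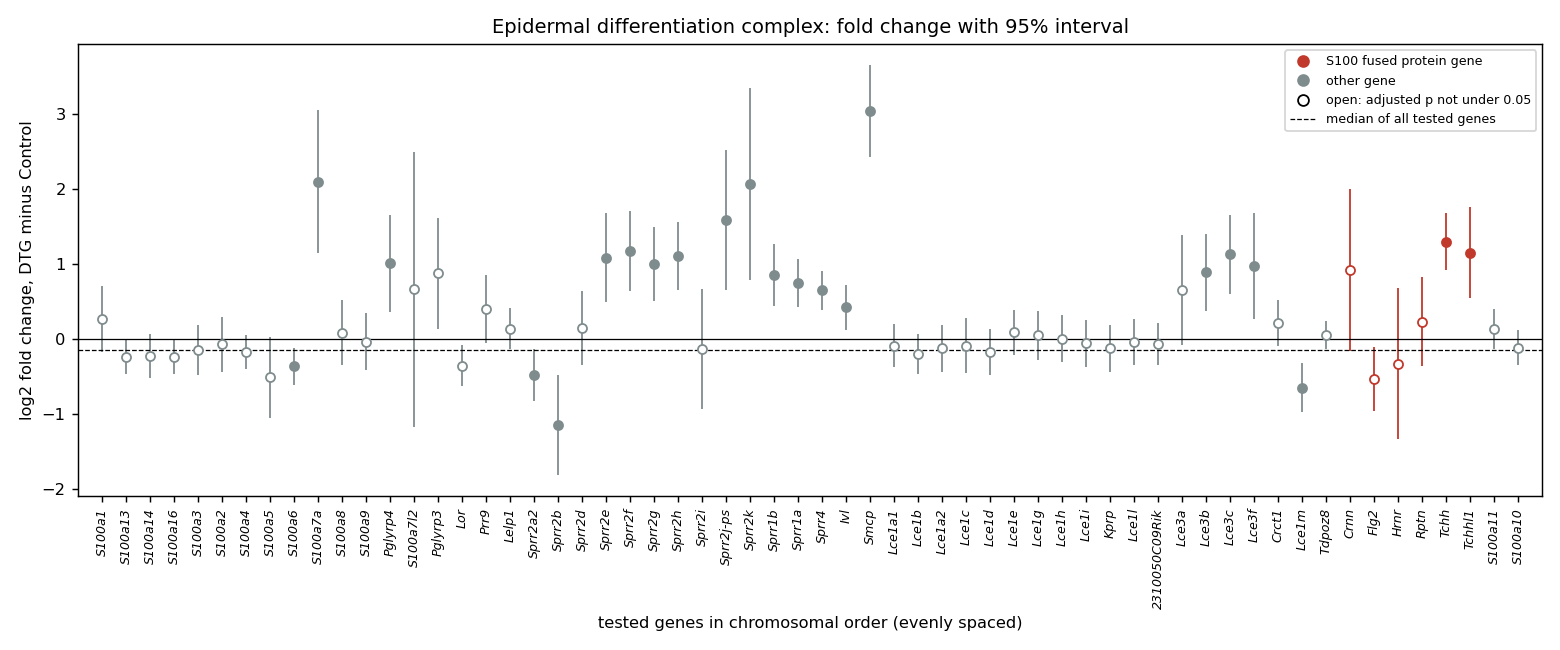
Log2 fold change, DTG minus Control, with its 95% interval (vertical axis) for 60 tested genes in chromosomal order at even spacing (horizontal axis); S100 fused-type genes are red, others grey, and open points did not pass the test. Among the members, Tchh and Tchhl1 are filled, and the adjacent S100a11 and S100a10 points lie near 0.

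The free S100 genes of the same cluster share the S100 domain with the fused proteins. Of 15 tested, 1 rose and 1 fell, with a median log2 fold change of -0.12, beside -0.15 over all genes. The list used here held 12 of them, with a median of -0.13, and left out S100a2 (-0.07), S100a5 (-0.51) and S100a7l2 (0.66), none of which passed. S100a7a, a psoriasin-type S100 gene, rose by 2.10 (SE 0.42, limma adjusted p = 0.0072), and S100a6, which encodes calcyclin, fell by 0.36 (SE 0.11, limma adjusted p = 0.032). The alarmin genes S100a8 and S100a9, at 0.09 and -0.03, did not pass.

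Few of the genes listed for the processing and breakdown of profilaggrin and its relatives were called. The list is wider than enzymes that cut profilaggrin, and holds Spink5, Hal and Ggct too. Of 16 such genes, 2 rose, 1 fell and 13 did not pass, so 18.8% were called beside 32.5% of all genes, and the median log2 fold change was -0.01. On the spike-in scale 9 were called, all higher, as were 6 of the 14 inner root sheath and medulla genes described next. Klk14, a kallikrein protease of the stratum corneum, rose by 1.49 (SE 0.26, limma adjusted p = 0.0042), and St14, which encodes matriptase, a protease needed for profilaggrin processing in mice, rose by 0.54 (SE 0.10, limma adjusted p = 0.0049). Hal, the histidase that turns filaggrin-derived histidine into urocanic acid, fell by 0.59 (SE 0.12, limma adjusted p = 0.0084). The aspartic protease gene Asprv1, the caspase 14 gene Casp14 and the bleomycin hydrolase gene Blmh, all of which act on filaggrin, read 0.05 (SE 0.14), -0.20 (SE 0.19) and 0.00 (SE 0.13). Padi1 and Padi3, which encode the deiminases of filaggrin and trichohyalin, read -0.66 (SE 0.70) and -0.32 (SE 0.24) and did not pass. Prss8 read 0.03 on the probe used, while its other probe read 0.63 (SE 0.20, limma adjusted p = 0.046 in a fit over every probe).

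Few genes that accompany trichohyalin in the hair follicle were called. Of 14 inner root sheath and medulla genes, 1 rose, 1 fell and 12 did not pass, or 14.3% called beside 32.5% of all genes, and the median log2 fold change was -0.13. Krt75, a keratin of the companion layer and medulla, had a mean level of -2.32 ± 0.26 in DTG and -3.25 ± 0.09 in Control (SD, n = 4 each), and rose by 0.92 (SE 0.13, limma adjusted p = 0.0019). Krt72, an inner root sheath keratin, fell by 0.48 (SE 0.15, limma adjusted p = 0.043), a call that was lost in 13 of 23 alternatives (limma adjusted p of up to 0.98, on the spike-in scale, where it read -0.01). Krt28 read 0.20 (SE 0.10), Krt73 -0.09 (SE 0.15) and Krt71 -0.23 (SE 0.40), and Gata3, a transcription factor gene of this sheath, read -0.17 (SE 0.14). None of these 4 passed. The transglutaminase genes Tgm1 and Tgm3, whose products cross-link trichohyalin, read 0.28 (SE 0.18) and 0.34 (SE 0.17) and did not pass. Over the 7 defining inner root sheath markers the summed processed signal was 43020 to 46243 on DTG arrays and 44651 to 50017 on Control arrays, and these ranges overlapped. Gata3 made up most of this sum, with 33043 to 35462 on DTG arrays and 30920 to 38404 on Control arrays. The 6 keratins without it summed to 9573 to 11942 on DTG arrays and 10081 to 13990 on Control arrays. Over all 14 genes of the list it was 85588 to 97197 on DTG arrays and 76672 to 89662 on Control arrays. Of 7 hair cortex and matrix genes tested, 0 were called by limma, beside 32.5% of all genes, and 2 of the 7 had an unadjusted p under 0.05. Their log2 fold changes ran from -0.66 to -0.23, and only 2 of them were well above background on all 8 arrays.

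Genes of the suprabasal and granular layers, where the filaggrin-type members are made, went both ways. Of 16, 2 rose, 3 fell and 11 did not pass, or 31.2% called beside 32.5% of all genes, and the median log2 fold change was -0.10. On the spike-in scale 8 were called, all higher and 0 lower, so the falls among them depend on the scaling. With the slide column as a block 0 were called by limma, against 24.5% of all genes, and 6 had an unadjusted p under 0.05. The keratin genes Krt1 and Krt10 fell by 0.72 (SE 0.19, limma adjusted p = 0.022) and 0.44 (SE 0.12, limma adjusted p = 0.027), and Dsg1a, a desmosomal cadherin gene, fell by 0.49 (SE 0.15, limma adjusted p = 0.035). The cornified envelope genes Cnfn and Ivl rose by 0.61 (SE 0.19, limma adjusted p = 0.039) and 0.42 (SE 0.13, limma adjusted p = 0.040). The loricrin gene Lor, at -0.36 (SE 0.12, limma adjusted p = 0.051), did not pass, much as Flg2 did not. Between 0 and 4 of the 16 were called with 1 array left out: 0 without Control 3 (6 at an unadjusted p under 0.05), 1 without DTG 1, 2 without Control 1, DTG 2 or DTG 3, 3 without Control 4, and 4 without Control 2 or DTG 4. Krt2 read -0.11 on the probe used and -2.05 (SE 0.27, limma adjusted p = 0.0013) on its other probe. Of 7 basal keratinocyte markers, 4 fell, with a median of -0.38. Of all genes, 21.3% were called lower, a share to set beside this count and those of the cell types that follow. Krt5, among the falls at -0.59, read 0.12 on its other probe (SE 0.25, limma adjusted p = 0.73 in a fit over every probe). The summed processed signal of the 7 basal markers, not scaled between arrays, was 379583 to 395649 on DTG arrays and 430258 to 463970 on Control arrays. Of 5 adipocyte markers, 4 fell, with sums of 216419 to 238411 on DTG arrays and 243394 to 307483 on Control arrays, while Lep read 1.32 (SE 0.54, limma adjusted p = 0.093). Of 5 dermal fibroblast markers, 2 fell, with a median of -0.40 and overlapping sums of 386093 to 535230 on DTG arrays and 452292 to 579813 on Control arrays. Of 5 skeletal muscle markers, 2 fell, with a median of -0.23 and overlapping sums of 323820 to 365329 on DTG arrays and 350111 to 408612 on Control arrays. Of 4 leukocyte markers tested, 1 fell, Cd3e by 0.74 (SE 0.13, limma adjusted p = 0.0045), and the median was -0.03. Their sums overlapped, at 121291 to 125751 on DTG arrays and 115279 to 134637 on Control arrays. The falls of basal, adipocyte, fibroblast, muscle and leukocyte markers are given on the scale used only. On the spike-in scale 7.51% of the calls over all genes were lower, against 65.6%, so these falls may depend on the scaling too. The part of these cell types in the member values was not tested.

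**Figure D4:**
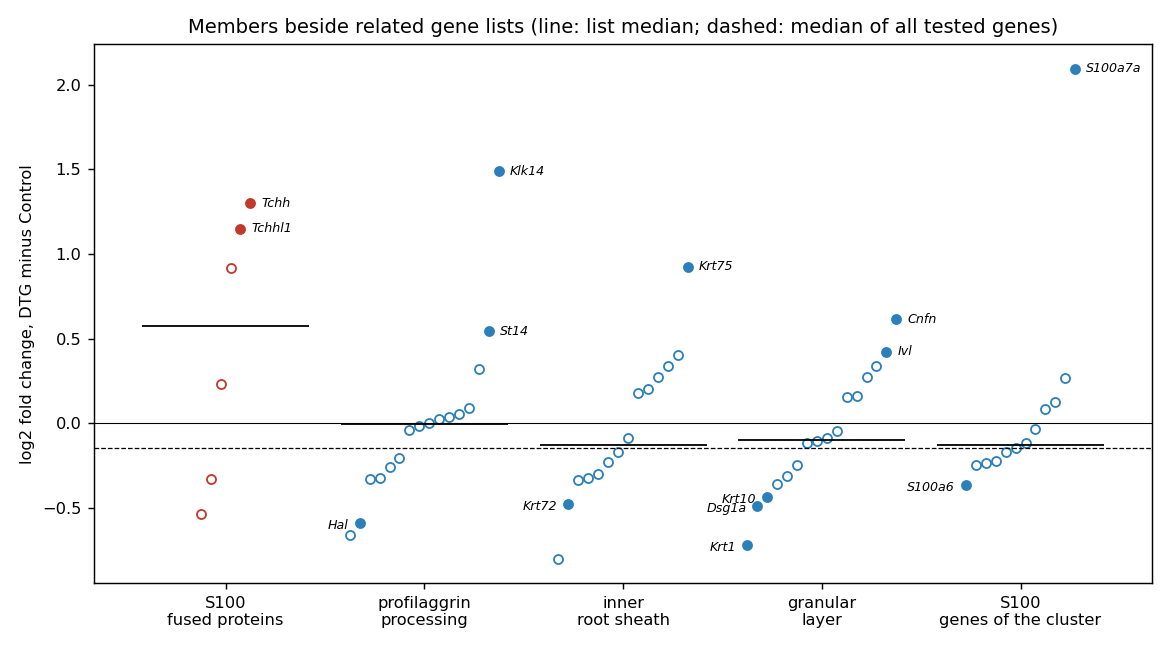
Log2 fold change, DTG minus Control (vertical axis), of the members (red) and of 4 gene lists (blue), each gene a point sorted by value; filled points have a limma adjusted p under 0.05 and carry their names. Medians of the lists lie between -0.13 and -0.01, and that of the 6 members at 0.58.

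The genes whose pattern over the 8 arrays lay nearest to each member were found by the root mean square distance between log2 values, each gene centred on its own mean, among 17280 other genes with a value on every array. The difference between the groups enters this distance, so a near gene shares a member's fold change by construction. Nearest to Tchh were Serpinb6d at 0.083, Agrp at 0.12 and Epha2 at 0.13 log2 units, with log2 fold changes of 1.35, 1.34 and 1.27. Nearest to Tchhl1 were Plaur at 0.14, Ppp1r14d at 0.14 and Tnfrsf23 at 0.15, with log2 fold changes of 1.35, 0.99 and 1.38. Nearest to Flg2 were Jakmip2 at 0.12, Krt81 at 0.12 and Bora at 0.12, with log2 fold changes of -0.53, -0.65 and -0.44. Nearest to Rptn were Tas2r138 at 0.12, Nr1d1 at 0.17 and Serpinb2 at 0.18, none of which was called. For Hrnr the nearest genes, Ppp2r3a, Utp15 and Sox6, lay at 0.32 to 0.33, and for Crnn the nearest, Grem1, Kcne4 and Wdfy2, at 0.37 to 0.40. Hrnr and Crnn also had the largest spread within groups among the members, which by itself raises such a distance. No member was among the 3 nearest genes of another member.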

How the data were processed

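The authors' deposited scanner tables hold linear spot intensity, background-corrected by Agilent's software (Feature Extraction 11.5.1.1 in the file headers; the submitters' processing notes name 10.7). The scanner tables name genome build mm9 per the file headers, and no coordinates of that build were used. The deposited value table, also intensity, served as an alternative only: of 350888 values there, 99.6% matched the scanner tables' processed signal to a relative tolerance of 0.001. The tables hold accessions and no symbols. Matching unversioned accessions to the RefSeq gene list of GRCm38.p6 named 26762 of 55681 probes (48.1%). Signals were put on the log2 scale here, spots that the authors' deposited flags mark as outliers were dropped (0.55% of probe values), spots of a probe were averaged and each array's 75th percentile was subtracted. Probes well above background on at least 3 of 4 arrays of a group were kept, and the brightest stood for a gene. The groups were compared with limma 3.58.1 (R 4.3.3), two-sided, with Benjamini-Hochberg adjustment over 17736 genes. The procedure was tested on simulated data. Groups came from the tissue label, and replicates were numbered in deposit order. Both groups held arrays of high and of low Xist, so neither group came from a single animal. Since no label states that all skins are separate animals, p-values reflect a spread among samples that may be partly technical. Precision is limited by having 4 arrays a group.

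The members, gene lists and tests were chosen with earlier results of these data known. Named genes are the 7 members, the called genes of each list with the smallest p (up to 4 in each direction), the S100 genes of the cluster and the 3 genes nearest in pattern to each member. Other list genes were named for their role after their values were seen. The 23 alternatives were other scalings, normexp correction with offset 50, the deposited value table; other filters and probe rules, flagged spots kept, the Xist class, each array left out, and, added after seeing the data, the slide column as a block. Arrays of the same column were no more alike than arrays of different columns. Their deviations from the group means correlated at -0.06, -0.32, -0.14 and 0.33 over genes in columns 1 to 4. Between different columns the correlations ran from -0.34 to 0.39. Design assumptions held except that normexp used the median spot signal. Windows at gene starts came from RefSeq (GRCm38.p6), and motifs were chosen after the values were known.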

Additional observations from a re-analysis of the deposited data

How the results depend on the processing

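Of 23 alternatives, 22 kept Tchh and Tchhl1 past the threshold. Within the arrays of low Xist (1 DTG against 2 Control arrays), 0 members were called by limma and 4 had an unadjusted p under 0.05, with Tchh at 0.95 (limma adjusted p = 0.092) and Tchhl1 at 0.95 (limma adjusted p = 0.11), and 241 of all genes were called. Several alternatives cannot move a member, since each has 1 probe. With 1 array left out, Tchh ran from 1.19 to 1.43 and Tchhl1 from 1.01 to 1.37, and 2 to 3 members were called. Flg2 passed with median scaling (-0.57), with probes above background on all 8 arrays (-0.54), without DTG 4 (-0.68) and with the slide column as a block (-0.54, limma adjusted p = 0.027), which made 3 members called. That block, chosen after seeing the data, left 0 of the 16 granular layer genes called and moved no other count by over 1.5 times. Rptn, never called, ran from 0.08 to 0.70. Crnn passed on the spike-in scale (1.39) and with the Xist covariate (1.23). Hrnr, never called, turned to 0.14 on the spike-in scale and 0.13 within low Xist, and ran from -0.63 to 0.054 with 1 array left out, the highest without DTG 3. The interaction of group and Xist class was called by limma for 0 of 17631 genes, of which 1132 had an unadjusted p under 0.05, and Tchh had 0.63 (limma adjusted p = 0.68).

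List calls moved more. Of the 16 processing genes, 5 were called with quantile scaling, 9 on the spike-in scale (all higher), 1 within low Xist, and 3 to 3 with 1 array left out. Of the 14 inner root sheath and medulla genes, 6 were called on the spike-in scale (all higher), 0 within low Xist, 1 each with quantile scaling, without scaling, with the value table and with flagged spots kept, and 1 to 2 with 1 array left out. The call of Krt72 was lost in 13 of 23 alternatives and that of Krt75 in 1. Of the 16 granular layer genes, 8 were called on the spike-in scale (all higher), 3 each with quantile scaling and without scaling, 2 within high Xist, 0 within low Xist, and 0 to 4 with 1 array left out. The cause was not tested. The labels give no replicate numbers, and those used follow deposit order, so no pairing of the skins themselves was possible. The slide column is the only link between the groups, and the block on it is the only paired fit.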
